A study of Homo sapiens with 6 samples.

Results

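Microtubule regulators that glycogen synthase kinase 3 (GSK3) phosphorylates, with related microtubule regulators, were followed in RKO cells with and without a GSK3B knockout. The set holds 10 genes, MAPT, MAP1B, MAP4, CLASP1, CLASP2, DPYSL2, DPYSL3, STMN1, MACF1 and MAPRE1, chosen by symbol, and all 10 were among the 28278 gene symbols of the count tables. MACF1 and MAPRE1 entered the set under related regulators, a label that does not say whether they are GSK3 substrates. Whether GSK3 phosphorylates each member was not examined here. RKO is an established human colon carcinoma line. Polyadenylated RNA was sequenced from 3 libraries of RKO cells with wild-type GSK3B and 3 libraries of RKO cells labelled as GSK3B knockouts, with no other treatment named. No label gives the method of the knockout, whether a clone or a pool was used, or whether replicates were separate cultures, so p-values measure only the spread between these libraries, which may be technical. Phosphorylation and protein were not measured, and the values below are transcript levels only.

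GSK3 is a serine/threonine kinase that often acts on sites already primed by another kinase. Phosphorylation by GSK3 loosens tau, CRMP2 and the CLASPs from microtubules, so local inactivation of the kinase lets these proteins stabilise microtubules, as at the leading edge of migrating cells and in growing axons. The group covers different tasks: MAPT (tau), MAP1B and MAP4 bind the microtubule lattice, MAPRE1 (EB1) tracks growing plus ends and recruits other proteins, CLASP1 and CLASP2 stabilise plus ends, MACF1 (ACF7) links microtubules to actin, DPYSL2 (CRMP2) and DPYSL3 (CRMP4) act in tubulin assembly and axon growth, and STMN1 (stathmin) sequesters tubulin dimers.

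The knockout label was checked on its target; values of single libraries are listed here and below in the order of replicates 1 to 3. GSK3B had 99.0, 97.6 and 91.4 CPM (counts scaled to library size with the trimmed mean of M-values, TMM) in the wild-type libraries, against 46.0, 47.5 and 47.1 CPM in the knockouts, that is 48.8% of wild type with a 95% interval of 45.4 to 52.4 (edgeR, adjusted p = 1.88e-12). GSK3B transcripts were thus lower in each knockout library, but far from 0. Its paralog GSK3A, whose protein shares many substrates, had 84.5 ± 4.57 CPM without and 86.4 ± 2.29 CPM with the knockout (SD, n = 3) and did not pass the test. Library totals ran from 32379369 to 33558362 counts. The epithelial markers CDX2, VIL1, KRT8 and KRT18 were present at 513 to 2500 counts in every library, while CDH1, CDX1 and the leukocyte markers PTPRC, CD3E, MS4A1 and NKG7 were listed at 0 throughout. Of other leukocyte markers CD14 had 0 to 2 counts, ITGAM had 1 to 15 counts and CD68, which shares 85.8% of its merged exons with other annotated genes, had 24311 to 25416 counts. The epithelial markers CLDN3, KRT19 and KRT20 were low, at 22 to 42, 1 to 5 and 0 to 2 counts. VIL1 shares 44% of its merged exons with USP37, a gene on the opposite strand. EPCAM, an epithelial adhesion gene with 34 to 140 counts, was the 1 of 6 tested epithelial markers that changed, at -1.68 on the log2 scale. Of 12 neuron markers RBFOX3, ELAVL3, ELAVL4, GAP43, NEFL and NEFM had 0 to 2 counts per library, SNAP25 1 to 6 and NEFH 0 to 7. The 4 tested neuron markers, SYN1, SYP, GRIN1 and SLC17A7, had 16 to 185 counts, and 0 of them were called. Of 7 fibroblast markers, COL1A2, COL3A1 and DCN had 23, 18 and 25 counts in wild-type replicate 3 and 0 to 2 counts in each other library. The summed level of the fibroblast list was 1.67, 2.32 and 4.20 CPM in wild type and 0.653 to 0.853 CPM in knockout, most of it PDGFRB outside wild-type replicate 3. PDGFRB, the 1 tested fibroblast marker, had 53, 70 and 67 counts in wild type and 26, 18 and 26 counts in knockout. It was called lower, at -1.43 on the log2 scale (edgeR, adjusted p = 9.2e-04).

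RefSeq promoter windows (GRCh38.p14) were matched for 8 of the 10 genes, all except DPYSL2 and MAPT. The only window of MAPRE1 and the 5′-most of 3 windows of CLASP2 are shown because these genes were higher in each knockout library than in any wild-type library. Printed are the bases before the annotated start that GENCODE 29 places in no exon, 189 bases for MAPRE1 (chr20:32819704-32819892, plus strand) and 148 bases for CLASP2 (chr3:33718357-33718504, minus strand), each 5′ to 3′ on the gene's own strand. Capitals mark matches on either strand to the core of the TATA box, which reads TATAAA, the box that reads CCAAT and is named for it, the GC-rich Sp-factor box, which reads GGGCGG, the E-box with the letters CACGTG, or the cAMP response element with the letters TGACGTCA.
MAPRE1: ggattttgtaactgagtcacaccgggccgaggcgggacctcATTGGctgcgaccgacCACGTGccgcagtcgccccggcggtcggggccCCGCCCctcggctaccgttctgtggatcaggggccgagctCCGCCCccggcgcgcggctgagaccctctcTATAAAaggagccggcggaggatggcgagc
CLASP2: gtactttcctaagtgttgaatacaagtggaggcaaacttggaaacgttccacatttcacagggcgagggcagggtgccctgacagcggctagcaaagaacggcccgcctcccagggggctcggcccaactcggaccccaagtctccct
The MAPRE1 stretch held matches to the TATA box core, the CCAAT box, the GC-rich box and the E-box, none overlapping another, and the CLASP2 stretch held no match to the motifs searched. Of the other 2 CLASP2 windows, that at 33645475 to 33645724 held the TATA box core and the CCAAT box and that at 33659108 to 33659357 the CCAAT box. Over all 35116 RefSeq windows of 250 bases, the TATA box core was found in 10.7%, the CCAAT box in 32.0%, the GC-rich box in 42.6%, the E-box in 6.34% and the cAMP response element in 1.65%. These matches are descriptions of letters in a window.

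Of the 10 genes, 7 were expressed at levels that could be tested and 3 were at the limit of detection. MAPRE1 rose to 111% of wild type in the knockout and MAP4 fell to 90.2%, and the other 5 tested genes did not pass the test. Between-group differences in the whole set were small: the largest among the tested members was 0.16 on the log2 scale. Thus 2 of 7 tested members were called, 1 higher and 1 lower, against 13.5% of all 14409 tested genes, 6.36% higher and 7.18% lower (edgeR quasi-likelihood test, adjusted p under 0.05). The median log2 fold change was -0.01 over the 7 members and 0.0007 over all tested genes. Since RNA came from whole cultures, a small difference in every cell cannot be told apart from a larger one in some of the cells.

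**Figure D1:**
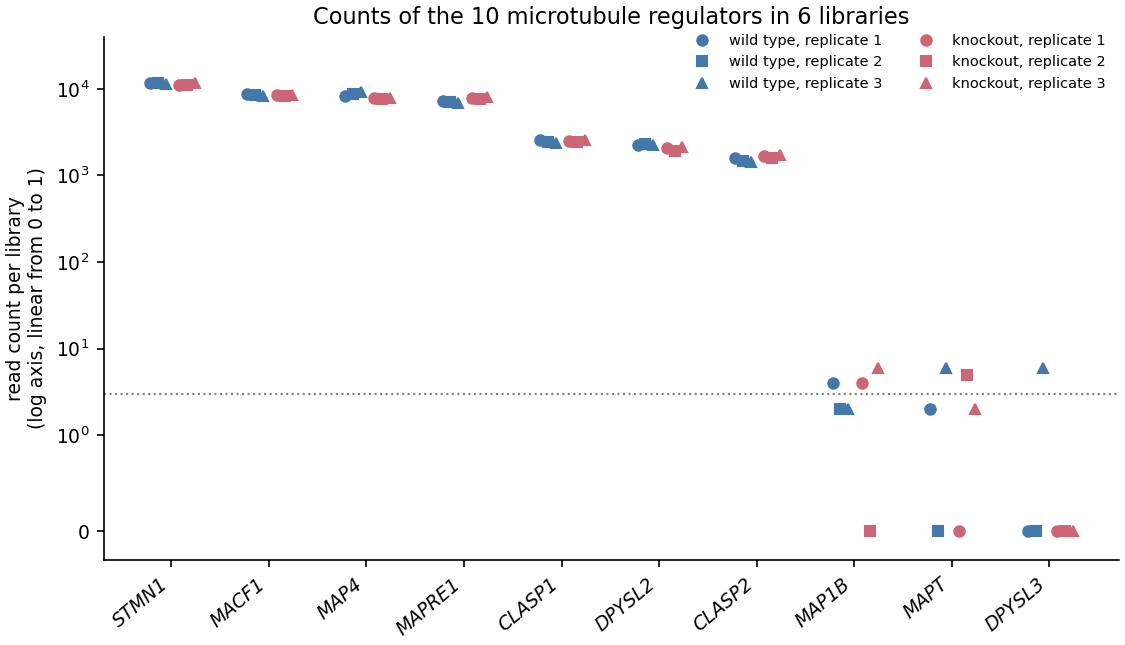
Read counts of the 10 regulators (log axis, linear from 0 to 1) in each of the 6 libraries, blue for wild type and red for knockout, with the replicate given by the marker; the dotted line is 3 counts. The 7 upper genes range from CLASP2 to STMN1, and the 3 lower genes have at most 6 counts.

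The 3 members at the limit of detection were MAPT, MAP1B and DPYSL3. MAPT, which encodes tau, had 2, 0 and 6 counts in wild-type replicates 1 to 3 and 0, 5 and 2 counts in the knockout replicates. MAP1B, a large lattice-binding protein of growing axons, had 4, 2 and 2 counts in wild type and 4, 0 and 6 counts in knockout. DPYSL3, a collapsin response mediator, had 6 counts in wild-type replicate 3 and 0 counts in the other 5 libraries. None of these values separates the groups: a limit of 3 counts corresponds to 0.0901 to 0.0933 CPM in these libraries. The 6 DPYSL3 counts came from the library that also held nearly all COL1A2, COL3A1 and DCN counts; whether the same source gave both was not tested. When all 19898 genes with a count were tested, MAPT, MAP1B and DPYSL3 had adjusted p of 0.952, 0.894 and 0.218 (edgeR). A count of 0 at this depth is not read as absence of expression. In GENCODE 29 on hg38, MAPT spans 45894382 to 46028334 on chromosome 17, and MAP1B (72107234 to 72209570) and DPYSL3 (147390811 to 147510056) lie on chromosome 5.

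MAP4 is the widely expressed counterpart of tau and stabilises the microtubule lattice in non-neuronal cells. It had 249, 264 and 277 CPM in the wild-type libraries, against 240.3, 235 and 238 CPM in the knockouts. The groups did not overlap, but the gap between the lowest wild-type and the highest knockout library was only 3.50% of the wild-type mean, and the wild-type libraries were themselves spread (SD 13.9 CPM, against 2.73 CPM in knockout). The knockout level was 90.2% of wild type (95% interval 85.2 to 95.5), or -0.15 ± 0.04 in log2 units (SE of 3 libraries a group; edgeR quasi-likelihood, adjusted p = 0.0140). MAP4 kept this call in the settings that used all 6 libraries. It did not pass without wild-type replicate 2 (adjusted p = 0.0686) or without knockout replicate 1, 2 or 3 (0.0533, 0.0833 and 0.0594). The MAP4 gene (chromosome 3, 47850690 to 48089272, minus strand in GENCODE 29) shares no exon position with another annotated gene. The counts do not show which of its isoforms was present.

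MAPRE1 encodes EB1, the end-binding protein on which many other plus-end proteins depend for their place at the microtubule tip. It stood at 219.6, 218 and 207 CPM in the wild-type libraries, against 237, 237 and 240.2 CPM in the knockouts. Each knockout library lay above each wild-type library, with a gap of 7.87% of the wild-type mean, the widest of the tested members. The knockout level was 111% of wild type (95% interval 105 to 117; 0.15 ± 0.04 in log2 units, SE, 3 libraries a group; edgeR quasi-likelihood test, adjusted p = 0.0114). It passed in each setting with all 6 libraries and without any 1 wild-type replicate, but not without knockout replicate 1, 2 or 3 (adjusted p = 0.0526, 0.0598 and 0.0660). The MAPRE1 gene (chromosome 20, 32819893 to 32850405, plus strand in GENCODE 29) shares no exon position with another annotated gene. Copies of MAPRE1 and STMN1 are annotated in GENCODE 29 as pseudogenes, and how reads matching both were counted is not given in the sources used here.

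CLASP1 and CLASP2 encode paralogous plus-end stabilisers that EB1 recruits. CLASP2 had 47.9, 45.3 and 42.8 CPM in the wild-type libraries, against 51.0, 49.7 and 51.1 CPM in the knockouts, with no overlap between the groups. At 112% of wild type (95% interval 103 to 121) it had the largest estimated change of the tested members, yet it did not pass (0.16 ± 0.06 in log2 units, SE, 3 libraries a group; edgeR, adjusted p = 0.0641). It did pass without wild-type replicate 1, its highest wild-type library (log2 fold change 0.20, adjusted p = 0.0195), and after a correction for GC content (0.13, adjusted p = 0.0434). CLASP2 was called in only 2 of 10 alternative settings with all 6 libraries. It was called in 1 of 6 fits without 1 library (edgeR, adjusted p up to 0.185). CLASP1 had 77.1, 74.7 and 71.6 CPM in the wild-type libraries, against 76.9, 76.0 and 78.1 CPM in the knockouts, and the groups overlapped. Its knockout level was 103% of wild type (95% interval 96.6 to 111; edgeR, adjusted p = 0.553). The ratio of CLASP2 to CLASP1 counts, not corrected for length or GC content, was 0.622, 0.606 and 0.598 in wild type. In knockout it was 0.664, 0.653 and 0.654. The ratio was thus higher in each knockout library, by 0.11 on the log2 scale with SDs of 0.028 and 0.013 within the groups (two-sided exact permutation test, p = 0.1, the smallest that 3 against 3 libraries can give). CLASP1 lies on chromosome 2 (121337776 to 121649587) and CLASP2 on chromosome 3 (33496245 to 33718356), both on the minus strand.

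MACF1 encodes a giant spectraplakin that guides microtubules along actin. It had 264, 262 and 251 CPM in the wild-type libraries, against 261, 256 and 254 CPM in the knockouts. The groups overlapped, and the knockout level was 99.3% of wild type with a 95% interval of 94.3 to 105 (edgeR, adjusted p = 0.886). The MACF1 gene (chromosome 1, 39081316 to 39487177, plus strand in GENCODE 29) shares 90 exonic bases with an antisense gene.

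DPYSL2 encodes CRMP2, which binds tubulin dimers and promotes their assembly. It had 68.8, 70.9 and 66.9 CPM in the wild-type libraries, against 62.4, 60.3 and 63.9 CPM in the knockouts. The groups did not overlap, with a gap of 4.46% of the wild-type mean. The knockout level was 90.3% of wild type (95% interval 84.1 to 97.0; -0.15 ± 0.05 in log2 units, SE, 3 libraries a group), and the adjusted p of 0.0515 lay just above the threshold (edgeR quasi-likelihood test). DESeq2 put it just below, at 0.0465, as did scaling by library size alone at 0.0288 and the filter of 1 CPM in 3 libraries at 0.0393. DPYSL2 was called in 5 of 10 alternative settings with all 6 libraries. It was called in 2 of 6 fits without 1 library (edgeR, adjusted p up to 0.214). DPYSL2 (chromosome 8, 26514022 to 26658178, plus strand) shares 71 exonic bases with PNMA2, which lies head to head with it. PNMA2, named after its values were seen, was also lower, at 44.6 ± 1.43 CPM without and 35.9 ± 0.261 CPM with the knockout (SD, n = 3; edgeR, adjusted p = 6.18e-04). The shared bases are 0.972% of the merged DPYSL2 exons.

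STMN1 encodes stathmin, a tubulin-sequestering protein abundant in proliferating cells, and took more counts than any other member in each library. It had 356, 361 and 346 CPM in the wild-type libraries, against 334, 349 and 354 CPM in the knockouts. The groups overlapped, and the knockout level was 97.5% of wild type (95% interval 92.7 to 103; edgeR, adjusted p = 0.551). STMN1 passed only with the correction for GC content, at -0.10 (adjusted p = 0.0172), the lowest-GC gene of the 7 at 39.3% in its longest transcript. The STMN1 gene (chromosome 1, 25884181 to 25906991, minus strand in GENCODE 29) shares 66 exonic bases with the microRNA gene MIR3917.

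Across the 7 tested members, 4 had groups that did not overlap, 2 with the knockout above (MAPRE1, CLASP2) and 2 with it below (MAP4, DPYSL2). Among all tested genes 31.3% had groups that did not overlap, 15.4% with the knockout above and 15.9% below. For each of these 4 the exact permutation test gave its smallest possible p of 0.1. Groups that do not overlap always give that value here, so it adds nothing to the separation. The other 3 had p between 0.3 and 0.8. Wild-type replicate 3 was the lowest wild-type library for 6 of the members and the highest for MAP4. Without that library MAPRE1 remained higher at 0.12, MAP4 lower at -0.11 and DPYSL2 passed at -0.17 (edgeR, adjusted p = 0.00494, 0.0125 and 0.0139).

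**Figure D2:**
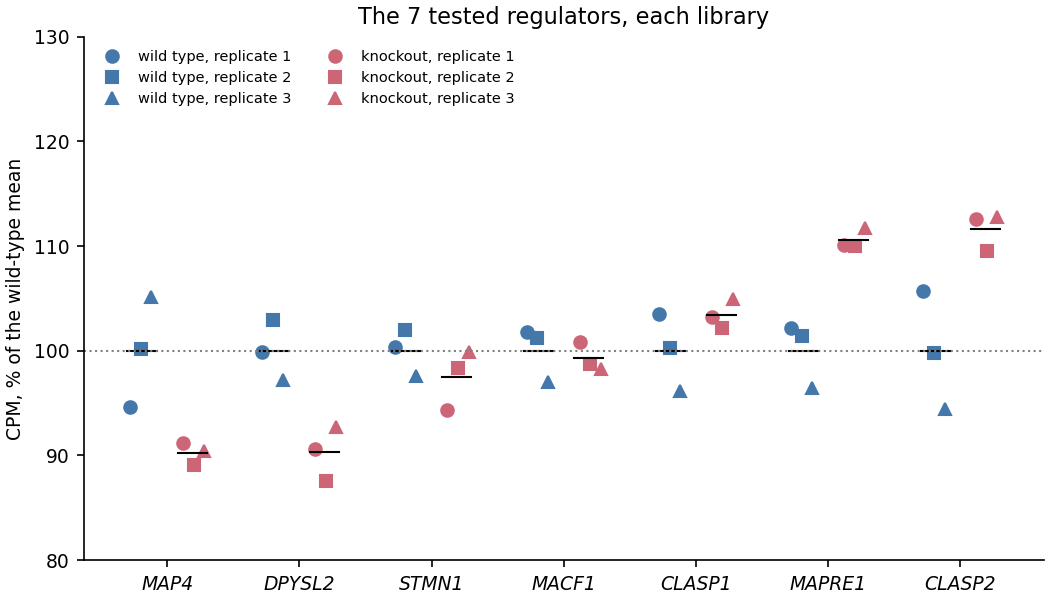
CPM of each tested regulator as a percentage of its wild-type mean, blue for wild type and red for knockout, with the replicate given by the marker and black lines at group means. All knockout points of MAP4 and DPYSL2 lie below their wild-type points, those of MAPRE1 and CLASP2 lie above, and those of STMN1, MACF1 and CLASP1 overlap.

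The 4 members with separated groups also differed in base composition. The GC content of the longest transcript was 41.9% for CLASP2 and 43.8% for MAPRE1, which were higher, and 50.0% for MAP4 and 50.9% for DPYSL2, which were lower. CLASP1, MACF1 and STMN1 had 47.4%, 46.0% and 39.3%. With a per-library correction for GC content MAP4 passed at -0.11 (edgeR, adjusted p = 0.00648) and MAPRE1 at 0.14 (adjusted p = 1.99e-04), while DPYSL2 stood at -0.11 (adjusted p = 0.0564). In that fit 2 members were higher and 2 lower, against 1967 higher and 1074 lower of all tested genes (21.1% in all, 13.7% and 7.45%). The same share for the other ways of testing was 13.6% with size factors of the relative log expression kind, 13% with library size alone, 11.5% over all genes with a count, 15.1% with 1 CPM in 3 libraries, 12.9% in DESeq2, 13.2% in limma-voom and 13.4% without edgeR's robust option. Models with more terms called 15.2% with a term for replicate number and 21.3% with that term and the GC correction. Leaving out wild-type replicate 1, 2 or 3 gave 17.3%, 7.35% and 14%, and leaving out knockout replicate 1, 2 or 3 gave 7.48%, 6.5% and 8.24%.

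**Figure D3:**
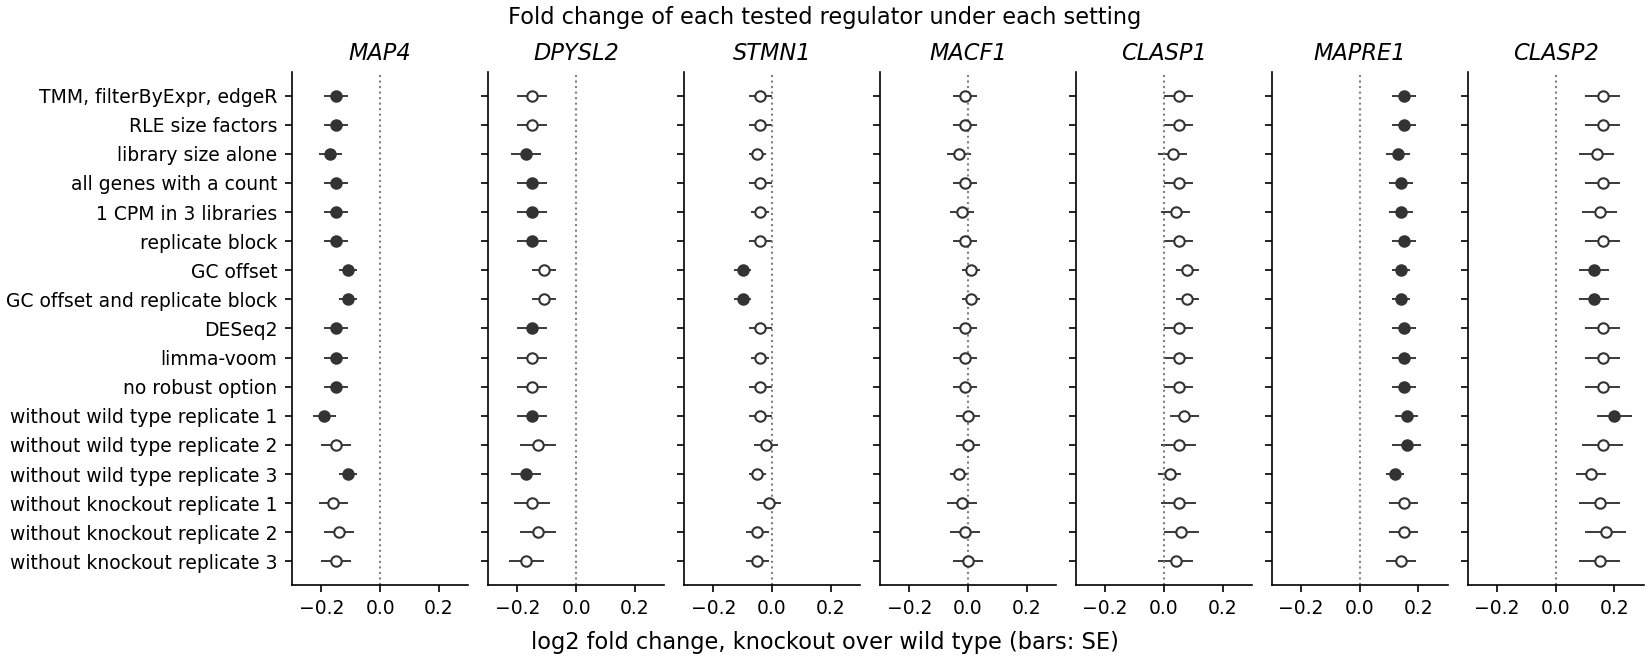
Log2 fold change of knockout over wild type for the 7 tested regulators under each setting, with bars of 1 SE; filled points have an adjusted p under 0.05. MAP4 points stay left of 0 and MAPRE1 points right of 0 in each fit, but both lose the filled mark when any knockout library is left out.

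Levels can be compared between genes only per length. Per kb of merged exons, MAPRE1 was the highest in wild type at 82.0 ± 2.53 CPM per kb (SD, n = 3), followed by STMN1 at 56.6 ± 1.25, MAP4 at 17.6 ± 0.927 and DPYSL2 at 9.43 ± 0.270 CPM per kb. CLASP1 (6.73 ± 0.250 CPM per kb) and MACF1 (6.35 ± 0.168 CPM per kb) came next, with wild-type ranges that did not overlap but lay so close that the lowest CLASP1 and the highest MACF1 value both round to 6.47, and CLASP2 was lowest at 2.98 ± 0.168 CPM per kb. The knockout gave the same order, from MAPRE1 at 90.7 ± 0.784 to CLASP2 at 3.33 ± 0.0532 CPM per kb. EB1 and stathmin transcripts thus stood well above the lattice-binding and cortical members on this scale. With the longest transcript as the length, STMN1 moved above MAPRE1 (120.3 against 82.0 CPM per kb) and MACF1 above CLASP1 (10.4 against 9.20 CPM per kb).

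**Figure D4:**
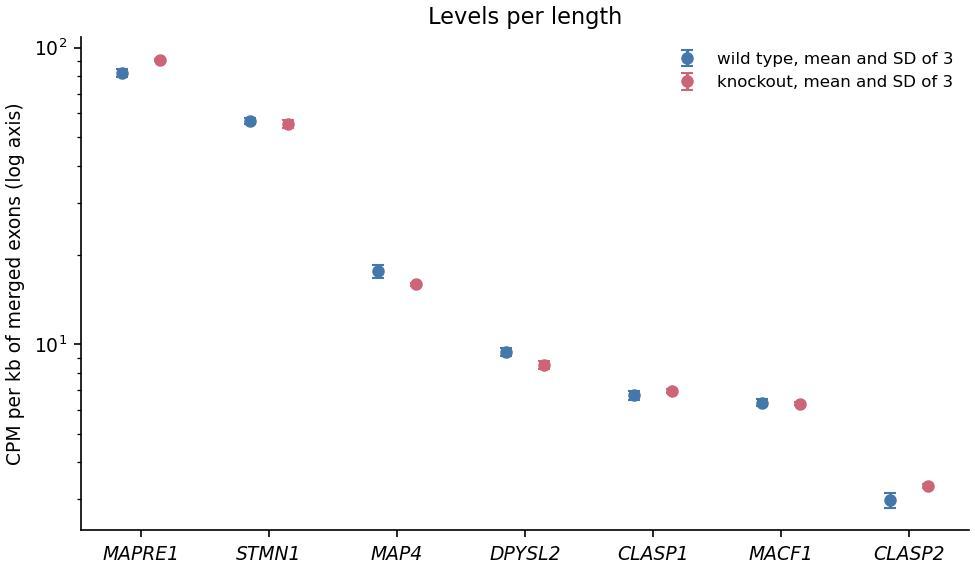
Level of each tested regulator per kb of merged exons (log axis), points for the mean and bars for the SD of 3 libraries, blue for wild type and red for knockout. MAPRE1 and STMN1 lie above 50 CPM per kb and the 5 other genes below 20.

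Of 12 paralogs of these regulators 8 were tested, with 0 higher and 1 lower, beside 6.36% and 7.18% of all tested genes. Of the 8, 3 had an unadjusted p under 0.05 in edgeR, beside 4034 of all 14409 tested genes. The gene that fell was STMN3, a stathmin-family gene, from 57.4 ± 3.25 to 43.7 ± 0.756 CPM (SD of 3 libraries). That was -0.39 ± 0.06 in log2 units (SE, edgeR, adjusted p = 3.62e-05), while its relative STMN1 did not pass in that fit. The GC content of the longest transcript was 63.5% for STMN3 and 39.3% for STMN1. STMN3 ran from -0.41 to -0.28 over the 10 alternative settings with all 6 libraries and was called in each. STMN1 was called lower with the GC correction, at -0.10. MAPRE2, which encodes EB2, had 45.2 ± 2.78 and 50.3 ± 1.90 CPM (log2 fold change 0.15, adjusted p = 0.0839). MAP1S, a short MAP1-family gene, had 43.0 ± 2.05 and 39.5 ± 0.435 CPM (log2 fold change -0.12, adjusted p = 0.168). DST, the other spectraplakin, had 68.7 ± 7.87 and 67.6 ± 3.93 CPM, and CRMP1 had 20.1 ± 0.616 and 20.6 ± 0.627 CPM. DPYSL4, DPYSL5, STMN2 and STMN4 had at most 3 counts in any library.

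Among 5 microtubule or motor proteins outside the set that are reported as GSK3 substrates, 4 were tested and 1 rose. Of all tested genes 6.36% were called higher and 7.18% lower. APC, the tumour suppressor that binds both beta-catenin and microtubule plus ends through EB1, went from 73.3 ± 6.63 to 87.7 ± 5.04 CPM (SD of 3 libraries; 0.26 ± 0.06 in log2 units, SE; edgeR, adjusted p = 0.00413). The kinesin light chain genes KLC1 and KLC2 and the spindle gene SPAG5 stood at -0.09, -0.03 and -0.02 and did not pass, and DCX was listed at 0. Of 18 tested plus-end and minus-end binders 2 rose and 3 fell, beside the same 6.36% and 7.18% of all tested genes. The neuron navigator genes NAV1 and NAV2 and the plus-end tracker gene CLIP2 fell, at -0.42, -0.29 and -0.28, and CAMSAP2, a minus-end stabiliser, and TACC1 rose, at 0.16 and 0.13 (edgeR, adjusted p at most 0.0432). With scaling by library size alone 0 of these 18 genes were called higher (CAMSAP2 at 0.14, adjusted p = 0.0599). With the GC correction NAV1, NAV2 and CLIP2 stood at -0.38, -0.25 and -0.17, CAMSAP2 at 0.09 and APC at 0.20. Each of these was still called (edgeR, adjusted p at most 0.0440) but closer to no change. CLIP2 had a GC content of 63.3%, CAMSAP2 38.5% and APC 39.6% in the longest transcript. Of 8 tested genes of the cortical platform that holds CLASPs and MACF1 near the cell edge, 0 passed edgeR's test and 2 had an unadjusted p under 0.05, a share close to that over all tested genes. ERC1 and PPFIBP1, which had the highest CPM of these without correction for length, were at 0.08 and 0.06, and ERC1 passed with the GC correction (0.11, adjusted p = 0.0459).

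Of 16 tested tubulin genes 2 rose and 2 fell, beside 6.36% and 7.18% of all tested genes. The abundant TUBB and TUBA1C were higher and TUBA1A and TUBB3 lower. TUBB went from 1724 ± 28.2 to 1833 ± 12.6 CPM and TUBA1C from 1335 ± 42.6 to 1430 ± 17.6 CPM (SD, n = 3). TUBA1A, which shares exon positions with TUBA1C, went from 176 ± 3.86 to 156 ± 2.34 CPM and TUBB3 from 49.0 ± 1.96 to 43.1 ± 1.02 CPM. Tubulin isotypes are near-identical in parts of their sequence, which leaves their counts uncertain where reads match several. TUBB and TUBA1C did not pass with scaling by library size alone (adjusted p = 0.115 and 0.0932). TUBB also did not pass over all genes with a count (0.0573) or with 1 CPM in 3 libraries (0.0607), and TUBB3 did not pass with the GC correction (-0.08, adjusted p = 0.224). Of 12 tested lattice-binding proteins outside the set 3 fell and 0 rose, beside 7.18% lower and 6.36% higher of all tested genes. Those lower were TPPP, MAP7 and MAP6D1 at -0.35, -0.29 and -0.25. TPPP did not pass with the GC correction (-0.26, adjusted p = 0.0523). MAP6D1 was called in 9 of 10 alternative settings with all 6 libraries. It shares 69.7% of its merged exons with AC131160.1, annotated as protein-coding on the same strand. Of 21 tubulin cofactors and modifying enzymes 1 rose and 1 fell, beside 6.36% and 7.18% of all tested genes. TBCE, a tubulin-folding cofactor, rose by 0.33 and AGBL5, a tubulin deglutamylase, fell at -0.20. TBCE shares 73.4% of its merged exons with other annotated entries, among them GGPS1 and a second entry also named TBCE.

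Of 21 tested kinases, phosphatases and other enzymes that act on the same proteins, 2 rose and 5 fell, GSK3B included. Among all tested genes 6.36% were higher and 7.18% lower. Those that fell included the tau-tubulin kinase gene TTBK2 (-0.25, adjusted p = 0.00777) and the casein kinase gene CSNK1E (-0.20, adjusted p = 0.00299 in edgeR). Pooled over 9 lists, 8 of 120 tested genes rose and 16 fell, beside 6.36% higher and 7.18% lower among all tested genes, with a median log2 fold change of -0.01. The lists were not tested as sets. Without knockout replicate 2 the pooled counts were 3 higher and 8 lower.

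**Figure D5:**
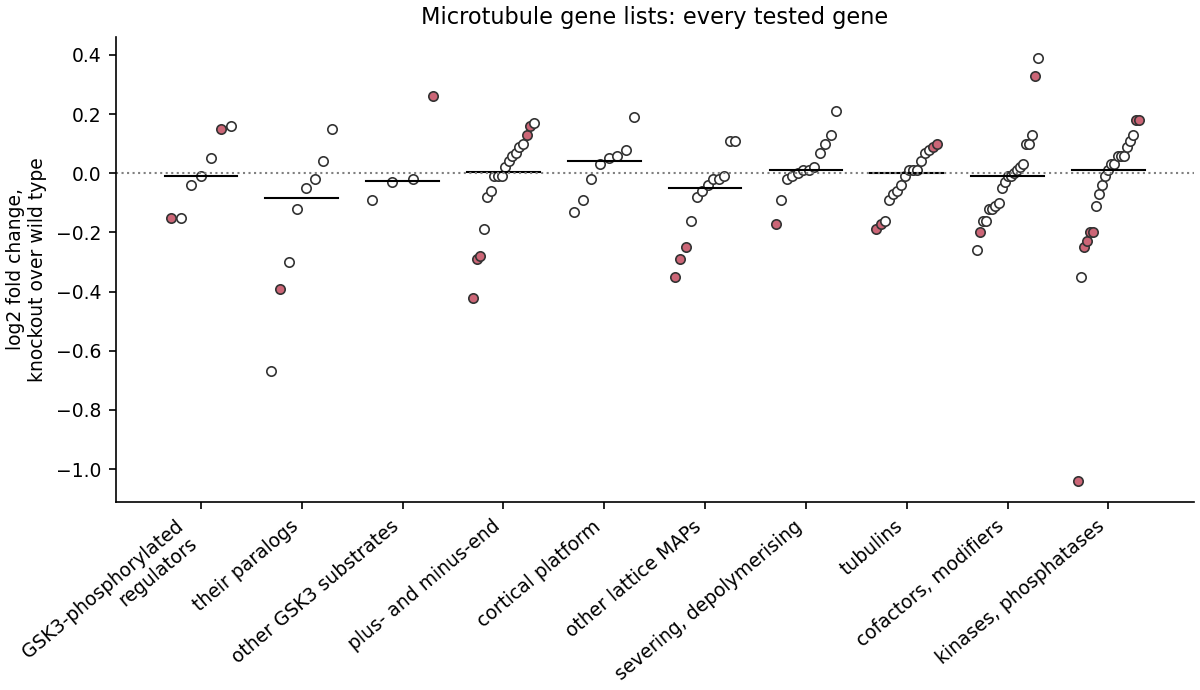
Log2 fold change of knockout over wild type for each tested gene of the 10 microtubule lists, with filled points for an adjusted p under 0.05 in edgeR and lines at list medians. Medians lie within 0.1 of 0 in each list, and the lowest point is GSK3B at -1.04.

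Genes close to the 3 members with the smallest p-values were found by the root mean square distance of gene-centred log2 CPM over the 6 libraries. For MAPRE1 they were H3-3B, ATP5F1C and UFC1, at distances of 0.00802, 0.0102 and 0.0108. For MAP4 they included NUB1 and MAP1S, at 0.0126 and 0.0140. For DPYSL2 they were MOAP1, EXOC6B and GINM1, at 0.0114, 0.0137 and 0.0147. With 6 libraries and 14409 tested genes, such neighbours describe these libraries only.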

How the data were processed

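The authors deposited 1 table of raw counts per gene symbol for each of 6 libraries. Per the labels' protocols, TRIzol RNA was made into polyadenylated libraries with a VAHTS kit and sequenced as 150 bp paired-end reads. Per the submitters' processing notes the build was hg38 and tools included TopHat, limma and edgeR; the counting program, annotation and strand setting were not stated (not given in the sources used here).

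Groups came from the sample titles. Counts were fitted in R 4.3.3 with edgeR 4.0.16: filterByExpr (minimum count 10, minimum total 15) left 14409 genes, scaled by TMM, with a robust quasi-likelihood test of group and Benjamini-Hochberg adjustment over all tested genes (threshold 0.05). CPM are TMM-scaled, and SEs came from fold change and F statistic. Within groups, chi-square per degree of freedom between libraries was 3.17 to 9.78, so each counted as 1 replicate. Lengths, GC and coordinates came from GENCODE 29 (26218 of 28278 symbols matched; GC for 95.9% of tested genes). The GC correction was fitted library by library as a natural spline of GC (5 degrees of freedom) and entered as offset. DESeq2 1.42.0 and limma 3.58.1 were alternatives. Tests were tested on simulated data.

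Members and lists were chosen with earlier results of these data known. Named genes were all 10 members, GSK3B, GSK3A, up to 4 called genes per list with the largest change (with none called, the 2 most abundant), and the nearest genes of 3 members; TACC1, PNMA2 and further paralogs, substrates and markers were named after their values were seen. No protein sequences were used here. Some genes that the rule names are not reported here.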

Additional observations from a re-analysis of the deposited data

How the results depend on the processing

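In the 10 settings with all 6 libraries MAP4 and MAPRE1 were called each time. The count of members lower was 2 in place of 1 with scaling by library size alone, all genes with a count, 1 CPM in 3 libraries, DESeq2 and the replicate block (DPYSL2 added), and 2 with the GC correction, alone or with the replicate block (STMN1 added), when 2 were higher (CLASP2 added). Leaving out 1 library gave 0 to 2 higher and 0 to 2 lower members; 0 were called without any 1 knockout replicate. Fewer samples enter those fits: all genes called ran from 361 to 1259 higher and 589 to 1272 lower, and genes of the other lists from 2 to 12 higher and 8 to 17 lower. Higher list genes numbered 3 with library size alone and 18 with the GC correction, with or without the replicate block. All genes split into 917 higher and 1034 lower (47.0% higher), 649 and 1229 with library size alone (34.6%), 1967 and 1074 with the GC correction (64.7%) and 1988 and 1078 with that and the block. Why calls moved was not tested. The replicate numbers pair nothing in the labels: same-numbered libraries correlated at 0.0709, -0.00406 and 0.0306 in their deviations, not each best with its own number. The block gave 1080 higher and 1113 lower genes. TUBB lost its call with the block (adjusted p = 0.0582). Depth limits MAPT, MAP1B and DPYSL3, which had at most 6 counts.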
